A study of Mus musculus with 6 samples.

Results

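The genes described here are the tumour necrosis factor (TNF) superfamily and the NF-kappaB pathway in epididymal white fat. They were chosen by symbol: Tnf, every symbol that starts with Tnfsf, Tnfrsf, Tnfaip or Nfkb, every Traf followed by a digit, and Rel, Rela, Relb, Chuk, Ikbkb, Ikbkg and Bcl3. The rule found 54 genes, on 55 probes, among the 13409 genes that the array names by 1 symbol. Of these, 53 had enough values to be tested, and the receptor Tnfrsf18 did not. Nfkb1, Chuk, Bcl3, Traf3, Nfkbid, Tnfsf15 and Tnfsf18 had no named probe and were not analysed here.

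The fat came from male C57BL/6J mice aged 12 weeks. They had been injected with CL-316,243, a beta3-adrenergic receptor agonist that makes fat cells release fatty acids, at 1 mg per kg body weight, or with saline, and tissue was taken at 3 hr. One text field of the labels spells the agonist CL316,246. Equal amounts of RNA from 6 mice were pooled for each treatment. Both pools were applied together to each of 6 two-colour arrays, with the CL-316,243 pool in channel 1 on arrays 1 to 3 and in channel 2 on arrays 4 to 6. The p-values below therefore measure the spread between repeat hybridisations of the same RNA and not between animals, and their precision is limited by the number of arrays.

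Every value is a deposited log ratio of the 2 pools, taken as log2, and no intensity was used here, so the level of a gene and the signal behind a ratio are unknown. For the same reason the tissue could not be checked by the level of fat cell markers. The sources used here do not state which pool is the numerator. The CL-316,243 pool is taken as the likely one, on no other ground than that each array is titled for the treated tissue. That 94 of 96 probes whose mean reached 1 in size in both orientations kept one sign across them bears on whether all arrays run the same way, and not on which pool is on top; the placement also favours agreement between arrays. "Higher" and "lower" below refer to the numerator, and all of them turn round if saline was the numerator. In bulk tissue, more cells of a type and more RNA per cell cannot be told apart.

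Values in the columns had slipped against each other where spots were dropped, and each column was first placed on probe numbers. Between 92.6% and 99.8% of probes were placed on 5 of the arrays and 65.8% on array 2, on which 31 of the 53 tested genes have no value. The deposited values of array 2 also had the widest spread, with an SD of 0.788, against 0.417 to 0.573 on the other arrays. Values that stand apart on array 2 are to be read with that spread in mind. After placement, arrays of the same orientation correlated over probes at a mean Spearman rho of 0.283 and arrays of opposite orientation at 0.110, and rows as deposited at 0.004 and -0.002. These are correlations over probes, which are not independent replicates, and the placement itself raises them.

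As background, TNF superfamily ligands are trimeric cytokines, mostly anchored in the membrane, that bind receptors of the Tnfrsf family. The receptors recruit Traf adaptor proteins, which lead to the IKK kinase complex. IKK marks the IkappaB inhibitors for destruction and so frees NF-kappaB dimers of Rel family subunits to enter the nucleus, where several IkappaB genes are themselves targets. In fat tissue the pathway is best known from obesity, in which macrophages and fat cells make TNF and fat cells respond less to insulin.

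Among the 53 genes, 5 were higher and 0 were lower by limma (adjusted p under 0.05, corrected over all genes). They were the receptor Tnfrsf12a, the inhibitor Nfkbie, the ligand Tnfsf14, the receptor Tnfrsf25 and the subunit Rela. That is 9.43% of them, against 3.12% of the 12885 genes tested on the array; over those genes 1.90% were called higher and 1.22% lower. The first 3 had ratios of 1.91 or more on the log2 scale and ranked 12, 20 and 24 in size among all genes tested; they were 3 of 53 with a ratio of at least 1 in size, a size that 0.993% of all genes tested reached. Of the 53, 44 lay within 0.5 of zero, against 12025 of all 12885 genes tested. The median log2 ratio over the 53 genes was 0.04, and over all genes tested it was -0.01. Of the 53 genes, 15 (28.3%) had an unadjusted p under 0.05, against 18.6% of all genes tested. Of one sign on all arrays with a value were 14 (26.4%, 9 positive and 5 negative), against 13.9% of all genes tested. One sign is easier to reach with fewer values: it held for 6 of 20 genes with 6 values (30.0%, against 11.0% of all genes), 8 of 27 with 5 (29.6%, against 17.6%) and 0 of 6 with 4 (against 24.0%).

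The count of 5 dropped to 3 without array 1, 3, 4 or 5, and the share over all genes moved as well. Without array 1 it was 3 of 22 genes tested (13.6%), against 1.80% of all genes, and without array 3 also 3 of 22, against 4.6%. In both of these fits the genes with no value on array 2, Tnfrsf25 among them, had too few values to be tested. For Tnfrsf25 the drop there is a missing test and not a failed one. Without array 4 it was 3 of 53 (5.66%), against 1.57%, and without array 5 it was 3 of 45 (6.67%), against 1.04%. The 3 genes were Tnfrsf12a, Nfkbie and Tnfsf14 each time.

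**Figure D1:**
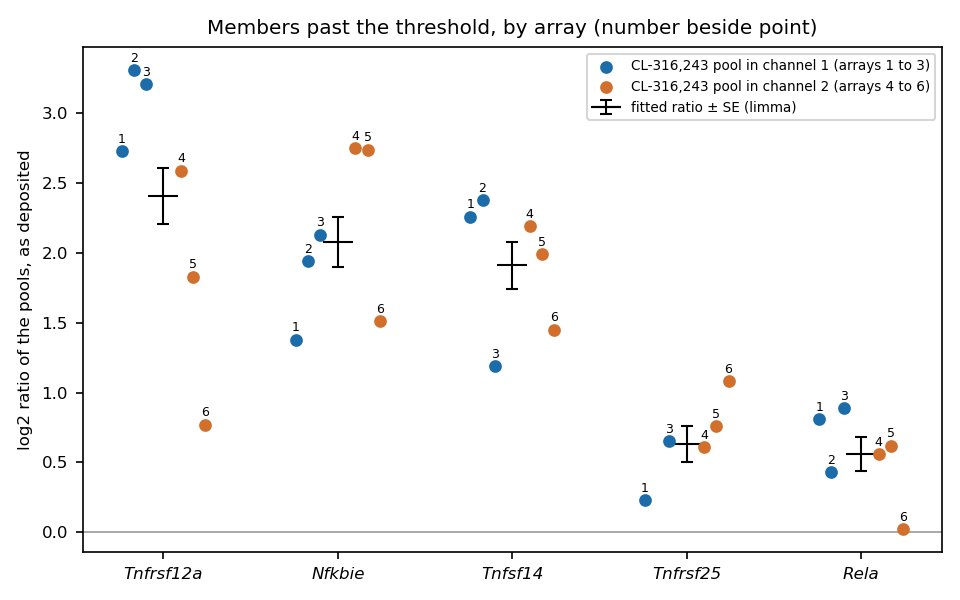
The log2 ratio of the pools (vertical axis) on each array for the 5 genes past the test. The points stand for arrays, coloured by the channel that held the CL-316,243 pool, and the bars for the fitted ratio with its standard error. Tnfrsf12a, Nfkbie and Tnfsf14 lay above 0.5 on every array, while Tnfrsf25 and Rela reached 0.23 and 0.02 on their lowest.

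Among the 10 ligands, Tnfsf14 alone passed the test (10.0%, against 3.12% of all genes tested). Tnfsf14, also known as LIGHT, is a ligand of activated lymphocytes that binds Tnfrsf14 and the lymphotoxin beta receptor. Its log2 ratios were 2.26, 2.38 and 1.19 on arrays 1 to 3 and 2.19, 1.99 and 1.45 on arrays 4 to 6. All 6 arrays were high, and the orientations overlapped. The fitted ratio was 1.91 ± 0.17 (SE, n = 6 arrays), a 3.76-fold difference (limma adjusted p = 0.000620).

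Tnf itself, the founding member and a cytokine made chiefly by macrophages, was slightly negative on all 6 arrays. Its log2 ratios were -0.27, -0.58 and -0.06 on arrays 1 to 3 and -0.39, -0.21 and -0.13 on arrays 4 to 6. The fitted ratio of -0.27 ± 0.11 did not pass the test (limma adjusted p = 0.221). Tnfsf12, or TWEAK, the ligand of Tnfrsf12a, was also negative on all 6 arrays, between -1.33 on array 2 and -0.03 on array 3, and did not pass the test (-0.50 ± 0.17, limma adjusted p = 0.152). Tnfsf4, a costimulatory ligand of T cells, was negative on all 5 arrays that measured it (-0.46 ± 0.15, limma adjusted p = 0.142).

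Tnfsf10, the death ligand TRAIL, had the next highest ratio among ligands, and 1 array carried it. It was at 0.02 and 0.21 on arrays 1 and 3 and at 2.70, 0.88 and 0.38 on arrays 4 to 6, with a fitted ratio of 0.72 ± 0.29 (limma adjusted p = 0.238). Tnfsf9, a costimulatory ligand, was positive on 5 of 5 arrays, from 0.07 to 0.46, and also did not pass (0.24 ± 0.11, limma adjusted p = 0.313). The remaining 4 ligands lay between -0.08 and 0.21. They were Tnfsf11 (RANKL, which drives osteoclasts), Tnfsf13 and Tnfsf13b (APRIL and BAFF, both B cell factors) and Tnfsf8, a T cell ligand. Over the 10 ligands the median ratio was 0.07.

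Among the receptors, 2 of 18 tested were higher and 0 lower (11.1% called, against 3.12% of all genes tested). Their median ratio was 0.05. Tnfrsf12a had the largest ratio of the whole family. It is the small receptor for TWEAK, an early response gene known to be induced by growth factors and tissue injury. Its log2 ratios were 2.73, 3.31 and 3.21 on arrays 1 to 3 and 2.59, 1.83 and 0.77 on arrays 4 to 6. Every array was positive and array 6 was the lowest, 1.96 below the median of the other 5. The groups did not overlap: the mean was 3.09 ± 0.31 on arrays 1 to 3 and 1.73 ± 0.92 on arrays 4 to 6 (SD, n = 3 arrays each). The dye term of the fit did not pass (limma adjusted p = 0.394); it passed in 0 of the 53 genes, and in 0.00776% of all genes tested. At an unadjusted p under 0.05 it was 5 of the 53 (9.43%), against 10.4% of all genes tested. The fitted ratio was 2.41 ± 0.20, a 5.30-fold difference (limma adjusted p = 0.000617).

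Tnfrsf25, a death-domain receptor found mainly on T cells, had no value on array 2. It was at 0.23 and 0.65 on arrays 1 and 3 and at 0.61, 0.76 and 1.08 on arrays 4 to 6, positive on all 5 arrays. The fitted ratio was 0.63 ± 0.13, or 1.55-fold (limma adjusted p = 0.0423). The call rests on single arrays, since the limma adjusted p rose to 0.0717 without array 4, 0.133 without array 5 and 0.0964 without array 6. Without array 1 or 3, Tnfrsf25 had too few values to be tested. Of the 6 T cell markers tested, 0 passed, against 3.12% of all genes tested, and their median ratio was -0.11. At an unadjusted limma p under 0.05 it was 0 of 6, against 18.6% of all genes tested. The part of T cells in the ratio of Tnfrsf25 was not tested.

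Tnfrsf23, a mouse decoy receptor for TRAIL, lay just outside the threshold on the lower side. It was at -0.47 and -1.30 on arrays 1 and 3 and at -0.48, -0.30 and -0.50 on arrays 4 to 6, negative on all 5 arrays. The fitted ratio was -0.66 ± 0.15 (limma adjusted p = 0.0519). It passed the test without array 2, which has no value for it, at an adjusted p of 0.0457. Its neighbour in function Tnfrsf22, the other mouse decoy, was at 0.01 ± 0.14.

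The receptors for TNF did not pass the test. Tnfrsf1a, the widely expressed receptor with a death domain, was at 0.48 and 0.08 on arrays 1 and 3 and at -0.01, 0.81 and 0.15 on arrays 4 to 6 (0.30 ± 0.15, limma adjusted p = 0.341). Tnfrsf1b, the receptor of immune and endothelial cells, was at -0.20 and 0.07 on arrays 1 and 3 and at 0.90, -0.38 and 0.16 on arrays 4 to 6 (0.08 ± 0.18, limma adjusted p = 0.860). Both overlapped between orientations and crossed zero.

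Tnfrsf13c, the BAFF receptor of B cells, was positive on 5 of 5 arrays, from 0.18 to 0.77, and did not pass (0.35 ± 0.13, limma adjusted p = 0.204). Single arrays stood apart for other receptors. Tnfrsf19 was at 1.96 on array 4 and between -0.19 and -0.02 on the other arrays that measured it. Tnfrsf11a, the receptor for RANKL, was at 1.09 on array 1 and between -0.10 and 0.06 elsewhere. Tnfrsf4, a costimulatory receptor of T cells, was at 0.85 on array 2 and between -0.41 and -0.13 on the others. Array 2 had the widest spread of values. The untested Tnfrsf18 was at 0.50, 0.12, 0.19 and -0.15 on arrays 1, 4, 5 and 6. The remaining receptors not yet named, Tnfrsf8, Tnfrsf9, Tnfrsf10b, Tnfrsf11b, Tnfrsf13b, Tnfrsf14, Tnfrsf17 and Tnfrsf21, lay between -0.13 and 0.05. Tnfrsf9 was the 1 gene with 2 probes, whose means were 0.05 and -0.11.

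Ligands and known receptors were set side by side for 15 pairs present on the array. Some genes stand in several pairs, and not every known pair is included. In none did both genes pass the test. With 3.12% of all genes tested passing, such a pair would be rare. Ltbr, the lymphotoxin beta receptor, had too few values to be tested (0.07, 0.05, -0.10 and -0.67 on arrays 3 to 6). Tnfrsf12a was at 2.41 ± 0.20 and its ligand Tnfsf12 at -0.50 ± 0.17. In the opposite arrangement, the receptor Tnfrsf14 was at 0.05 ± 0.13 and its ligand Tnfsf14 at 1.91 ± 0.17. The difference between the genes of a pair was not tested.

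**Figure D2:**
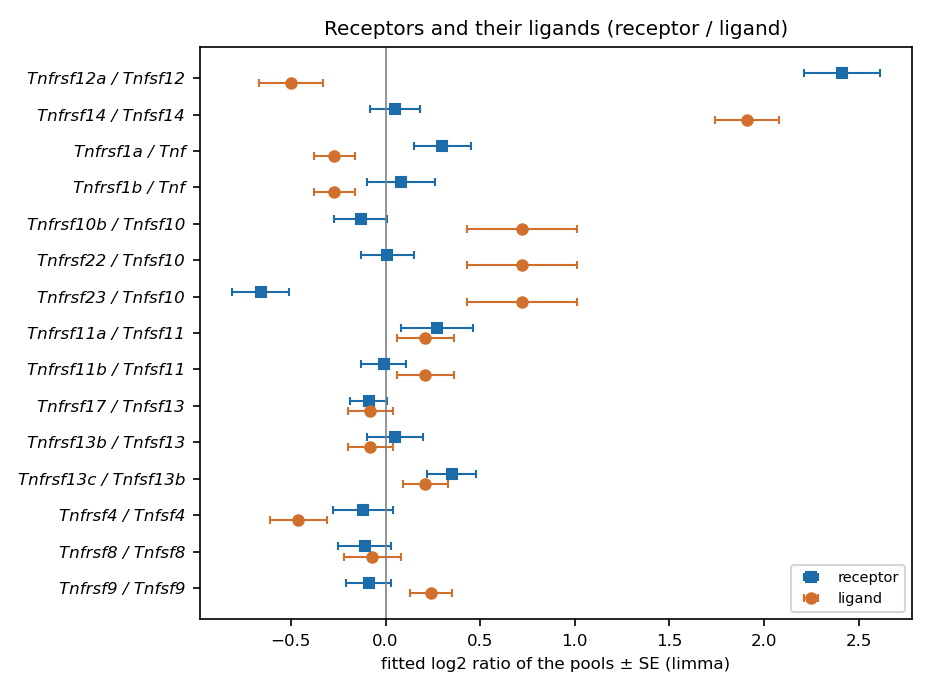
Fitted log2 ratios with standard errors (horizontal axis) for 15 receptor and ligand pairs, receptor and ligand in different colours. Tnfrsf12a stands at 2.41 with its ligand at -0.50, Tnfsf14 at 1.91 with its receptor at 0.05, and all other genes shown lie between -0.66 and 0.72.

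Of the 7 genes named Traf, 0 passed the test and the median ratio was 0.12. Over all genes tested 3.12% passed, and at that share 0 of 7 is not unusual. Traf4, an adaptor of epithelial and developing tissues, came nearest. It was at 0.40 and 0.54 on arrays 1 and 3 and at 0.44, 0.58 and 0.32 on arrays 4 to 6, positive on all 5 arrays (0.46 ± 0.12, limma adjusted p = 0.0750). Traf1 (0.24 ± 0.16), which is itself known as an NF-kappaB target, and Traf2 (0.02 ± 0.16), the main adaptor of TNF receptors, crossed zero between arrays. So did Traf5 (0.05 ± 0.11). Traf6, the adaptor of interleukin 1 and Toll-like receptors, was at 1.70 on array 4 and between -0.22 and 0.38 on the other 4 arrays with a value (0.30 ± 0.24, limma adjusted p = 0.561). Traf3ip1 and Traf3ip2, which bind Traf3 and are not Trafs themselves, were at -0.09 ± 0.10 and 0.12 ± 0.14.

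The IKK complex was represented by its catalytic subunit Ikbkb and its scaffold Ikbkg, and neither passed the test. Ikbkb was at -0.28 and -0.07 on arrays 1 and 3 and at 0.29, -0.28 and 0.36 on arrays 4 to 6 (-0.03 ± 0.14, limma adjusted p = 0.943). Ikbkg was at -0.50 and -0.11 on arrays 1 and 3 and at 0.68 and 0.08 on arrays 5 and 6 (0.03 ± 0.16, limma adjusted p = 0.936). The spread of both was larger than their ratio.

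Of the 4 measured NF-kappaB subunits, 1 passed the test (25.0%), against 3.12% of all genes tested. All 4 had a positive fitted ratio, as had 32 of the 53 genes and 6136 of all 12885 genes tested. Rela encodes the main transactivating subunit. It was at 0.81, 0.43 and 0.89 on arrays 1 to 3 and at 0.56, 0.62 and 0.02 on arrays 4 to 6. All 6 arrays were positive, although array 6 was close to zero, and the orientations overlapped. The fitted ratio was 0.56 ± 0.12, or 1.47-fold (limma adjusted p = 0.0422). The adjusted p was 0.125 without array 1, 0.0671 without array 3, 0.127 without array 4 and 0.162 without array 5.

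The other subunits crossed zero between arrays. Nfkb2, the precursor of the non-canonical pathway, was at 0.39, 0.47, -0.50 and 0.56 on arrays 1, 3, 5 and 6 (0.23 ± 0.19, limma adjusted p = 0.571). Relb, its usual partner, was at 0.76 and -0.32 on arrays 1 and 3 and at 0.46, 0.27 and -0.27 on arrays 4 to 6 (0.19 ± 0.18, limma adjusted p = 0.641). Rel, the subunit of lymphocytes, was at -0.50 and -0.09 on arrays 1 and 3 and at 0.34, 0.35 and 0.47 on arrays 4 to 6 (0.04 ± 0.12, limma adjusted p = 0.890). Rel was thus negative on the arrays with the CL-316,243 pool in channel 1 and positive on those with it in channel 2, and its dye term did not pass (limma adjusted p = 0.422).

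Among the inhibitors and IkappaB-like genes, Nfkbie passed the test and the other 4 did not. Nfkbie encodes IkappaB epsilon, which holds Rel and Rela dimers in the cytoplasm and is known as a delayed NF-kappaB target. Its log2 ratios were 1.38, 1.94 and 2.13 on arrays 1 to 3 and 2.75, 2.74 and 1.51 on arrays 4 to 6. All 6 arrays were high, and the orientations overlapped. The fitted ratio was 2.08 ± 0.18, a 4.22-fold difference (limma adjusted p = 0.000617).

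Nfkbia, the classical IkappaB alpha and the best known feedback target of the pathway, varied in sign between arrays, with a fitted ratio near zero. It was at -0.58, 0.24 and -0.38 on arrays 1 to 3 and at 0.31, 0.04 and 0.11 on arrays 4 to 6 (-0.04 ± 0.13, limma adjusted p = 0.893). Nfkbib, or IkappaB beta, was at -0.22, -0.18 and 0.30 on arrays 1 to 3 and at -0.25, -0.14 and -0.27 on arrays 4 to 6 (-0.13 ± 0.11, limma adjusted p = 0.583). Nfkbiz, a nuclear IkappaB-like protein needed for Il6 transcription in macrophages, was at 0.67 and 0.59 on arrays 1 and 3 and at 1.12, -0.01 and -0.01 on arrays 4 to 6. It was high on 3 arrays and at zero on the other 2, and did not pass (0.50 ± 0.18, limma adjusted p = 0.194). Nfkbil1, named for its likeness to IkappaB, was at 0.12 ± 0.12.

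The Tnfaip genes, named for induction by TNF in other cells, gave 0 higher and 0 lower of 7, with a median ratio of -0.31. With 3.12% of all genes tested passing, 0 of 7 is not unusual. The name groups unrelated proteins. Tnfaip3, the deubiquitinating enzyme that shuts NF-kappaB signalling off, was flat, at -0.04, -0.03, 0.03 and 0.02 on arrays 1, 3, 5 and 6 (-0.01 ± 0.13, limma adjusted p = 0.99). Tnfaip8 was at -0.55 and -0.01 on arrays 1 and 3 and at -1.11, -0.68 and -0.56 on arrays 4 to 6, negative on all 5 arrays (-0.53 ± 0.14, limma adjusted p = 0.0862). Tnfaip8l2, a relative of it that restrains immune cells, was at -0.81, -1.58 and -0.90 on arrays 1 to 3 and at -0.24 and 0.16 on arrays 5 and 6 (-0.57 ± 0.15, limma adjusted p = 0.0879).

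These values show Tnfaip8l2 low in the channel 1 arrays and near zero in the others, without overlap; its dye term did not pass (limma adjusted p = 0.394). Tnfaip8l1, another relative, was at -0.34 ± 0.15. Tnfaip1 was at -1.36 on array 3 and between -0.08 and 0.23 on the others (-0.31 ± 0.19). Tnfaip2 was at 1.20 on array 5 and between -0.50 and 0.41 elsewhere (0.20 ± 0.19). Tnfaip6, a secreted hyaluronan-binding protein, was at 0.02 ± 0.12.

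**Figure D3:**
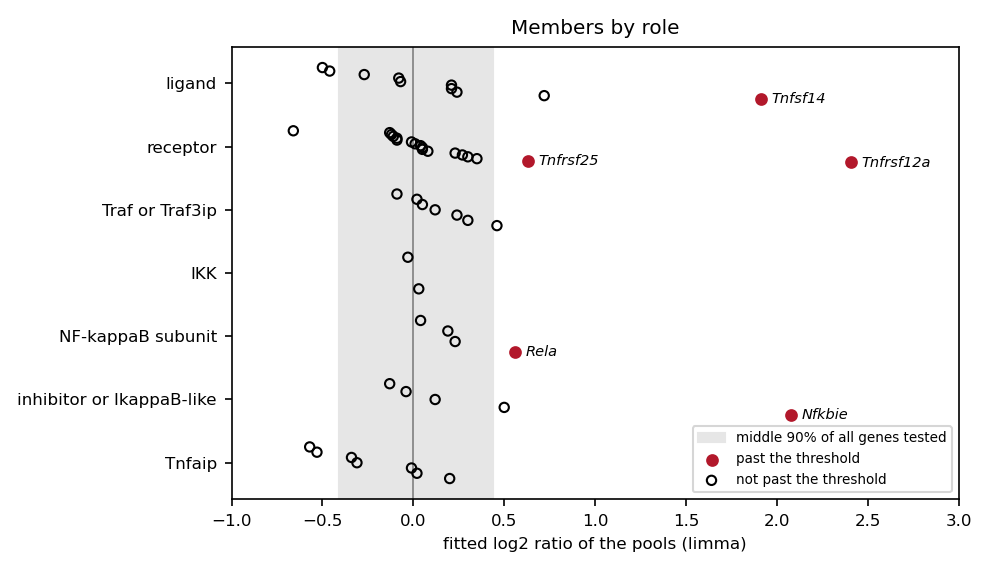
Fitted log2 ratios of the 53 tested genes grouped by role, 1 point per gene, filled where the gene passed the test. The grey band holds the middle 90% of all genes tested, from -0.41 to 0.44. Tnfrsf12a, Nfkbie and Tnfsf14 lie at 1.91 or more. Within 0.5 of zero lie 44 of the 53, against 12025 of all 12885 genes tested.

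**Figure D4:**
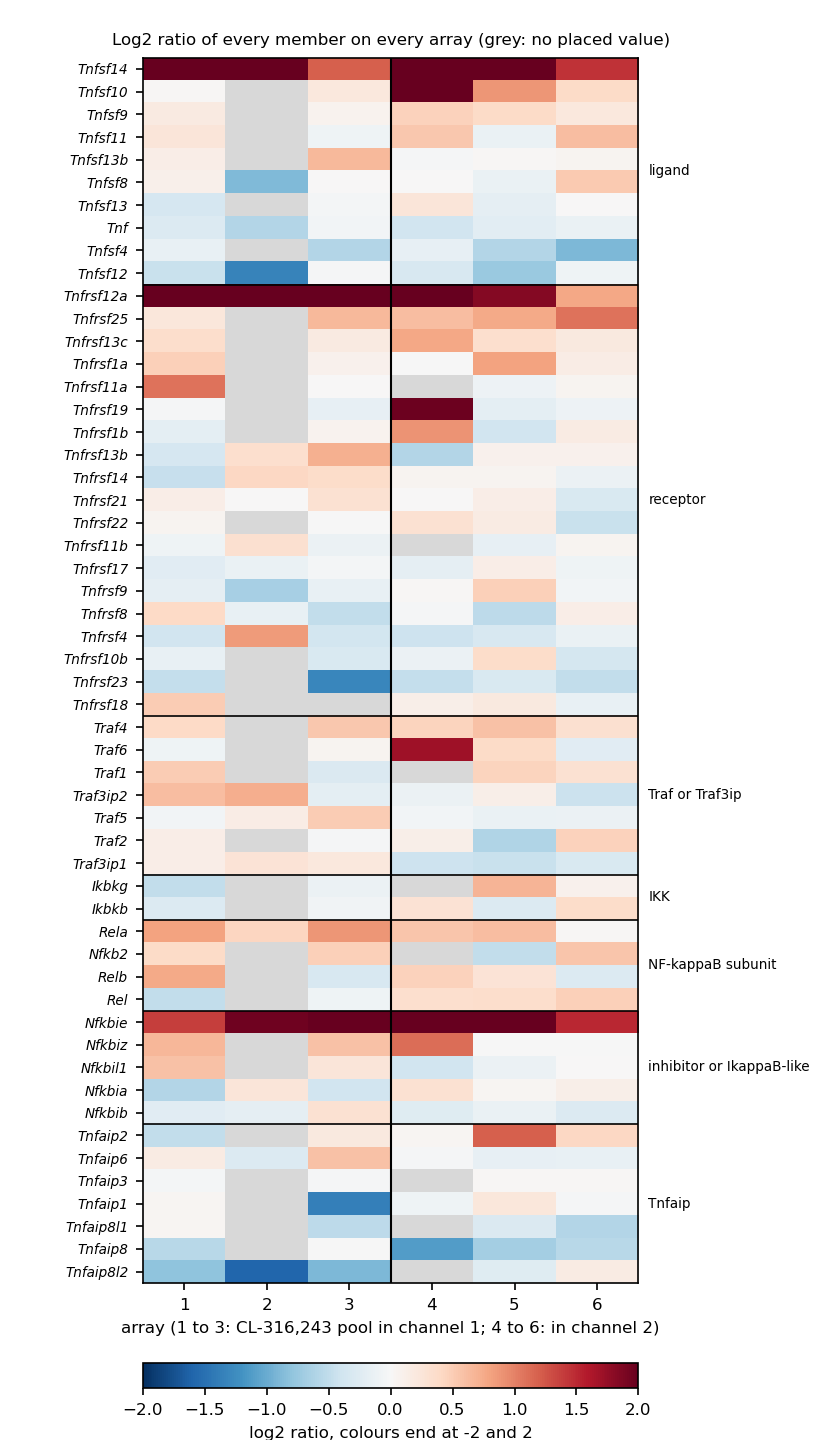
The log2 ratio of each of the 54 genes (rows, ordered by role) on each array (columns, arrays 1 to 3 left of arrays 4 to 6), from blue (negative) to red (positive), with colours ending at 2 in size and grey cells where no value was placed. Array 2 is grey for many genes, and single high cells appear on array 4 for Tnfsf10, Tnfrsf19 and Traf6.

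Promoters are printed for the 3 genes with the largest ratios. They show whether letters bound by NF-kappaB or by AP-1 stand close to the starts. RefSeq holds 250 bases before to 50 after each start (GRCm38.p6) for 43 of the 54 genes. The Nfkbie window is chr17:45555450-45555749 on the plus strand, the Tnfsf14 window chr17:57194132-57194431 on the minus strand and the Tnfrsf12a window chr17:23677400-23677699 on the minus strand. Each is printed 5′ to 3′ along its gene, with matches in capitals.
Nfkbie: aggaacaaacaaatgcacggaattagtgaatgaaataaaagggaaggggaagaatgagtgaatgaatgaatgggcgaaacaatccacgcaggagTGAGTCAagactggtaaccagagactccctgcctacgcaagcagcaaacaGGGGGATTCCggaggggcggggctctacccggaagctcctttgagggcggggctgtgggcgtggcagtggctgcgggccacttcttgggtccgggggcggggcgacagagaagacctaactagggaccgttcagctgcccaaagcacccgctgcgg
Tnfsf14: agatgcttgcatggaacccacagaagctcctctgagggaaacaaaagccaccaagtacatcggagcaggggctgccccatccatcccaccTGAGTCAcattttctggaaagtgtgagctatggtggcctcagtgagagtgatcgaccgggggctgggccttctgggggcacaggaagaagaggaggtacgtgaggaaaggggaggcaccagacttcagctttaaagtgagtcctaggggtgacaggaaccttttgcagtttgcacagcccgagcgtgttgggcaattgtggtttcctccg
Tnfrsf12a: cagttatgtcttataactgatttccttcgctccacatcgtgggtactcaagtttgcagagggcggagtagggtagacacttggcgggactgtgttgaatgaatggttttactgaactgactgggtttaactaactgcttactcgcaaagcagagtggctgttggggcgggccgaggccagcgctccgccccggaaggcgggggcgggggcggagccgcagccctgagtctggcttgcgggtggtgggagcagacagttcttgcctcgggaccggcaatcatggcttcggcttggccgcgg

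The letters searched on both strands were the 10-letter NF-kappaB consensus, a narrower NF-kappaB form (GGG, any 2 bases, TTTCC) that overlaps with it, the AP-1 motif TGANTCA and the cyclic AMP response element TGACGTCA. Nfkbie held both an AP-1 match, TGAGTCA, 156 bases before its start and an NF-kappaB consensus match, GGGGGATTCC, 106 bases before it. Tnfsf14 held TGAGTCA 160 bases before its start and no NF-kappaB match, and Tnfrsf12a held none of the 4 motifs. Rela, whose window is not printed, also held none of the 4. Tnfrsf25, not printed either, held the consensus match GGGGGCCTCC in 1 window, 28 bases before the start and again after it. These windows cover the start only, and a match is a description of letters and not a bound site. Over the 54 windows of the 43 genes, some of which are different starts of 1 gene, 12 (22.2%) held the NF-kappaB consensus, against 8.46% of all 32851 windows. The narrower form stood in 9 (16.7%), among them 1 of the windows of Tnfrsf25, against 1.63% of all windows. TGANTCA stood in 13 (24.1%) of them, against 7.81% of all windows, and TGACGTCA in 0, against 1.79%. The genes with a consensus match were Nfkb2, Nfkbia, Nfkbie, Rel, Tnfaip2, Tnfaip3, Tnfaip8l1, Tnfrsf8, Tnfrsf9 and Tnfrsf25. Of these, Nfkbie and Tnfrsf25 passed the test, where 9.43% of the 53 genes and 3.12% of all genes tested passed. Whether a match goes with a call was not tested. Nfkb2 (0.23), Tnfaip3 (-0.01), Tnfrsf8 (-0.11) and Tnfrsf9 (-0.09) also held both the consensus and TGANTCA, and did not pass.

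Beyond the 54 genes, a list of 55 other pathway genes was read, covering death-domain adaptors, ubiquitin enzymes, further receptors and ligands and Toll-like receptor adaptors. Of these, 44 were on the array and 41 were tested. By limma, 0 passed in either direction, against 3.12% of all genes tested. At an unadjusted limma p under 0.05 were 5 (12.2%), against 18.6% of all genes tested. Their median ratio was 0.01. Tank, a Traf-binding scaffold, had the highest ratio at 0.54 ± 0.16 (limma adjusted p = 0.12), and Tnip1, a partner of Tnfaip3, the lowest at -0.38 ± 0.17 (limma adjusted p = 0.284).

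A list of 33 known NF-kappaB targets outside the family was also read, and 7 of the 27 tested were higher and 0 lower. That is 25.9%, against 3.12% of all genes tested, with a median ratio of 0.30. At an unadjusted p under 0.05 it was 13 of 27 (48.1%), against 18.6% of all genes tested. The direction of the leading cytokines was known from these data when the list was written, so the count is not independent evidence. The largest ratios were those of the chemokines Cxcl1 (2.5 ± 0.22), Ccl2 (2.12 ± 0.33) and Ccl7 (2.11 ± 0.19), which attract neutrophils and monocytes, and of the cytokine Il6 (1.77 ± 0.19). Junb, an AP-1 subunit, was at 1.13 ± 0.22, Ier3, an early response gene of cell survival, at 1.03 ± 0.13 and Myc, a growth regulator, at 0.72 ± 0.15. All 7 were positive on every array with a value, and their limma adjusted p-values lay between 0.000638 and 0.0427.

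The other 20 tested targets did not pass, among them the adhesion molecule Vcam1 (0.09 ± 0.12), the chemokine Ccl5 (-0.12 ± 0.13) and the transcription factor Irf1 (-0.08 ± 0.17). The coagulation starter F3, or tissue factor (0.79 ± 0.21, limma adjusted p = 0.0990), and Cd83, a surface protein of mature dendritic cells (0.63 ± 0.20, limma adjusted p = 0.132), had the largest ratios of those not past the test. The acute phase gene Saa3 had the lowest (-0.60 ± 0.30, limma adjusted p = 0.319) and was at -2.57 on array 2 and between -0.43 and 0.26 on the others. Several of these targets, Junb, Myc and Il6 among them, are also known targets of other transcription factors.

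**Figure D5:**
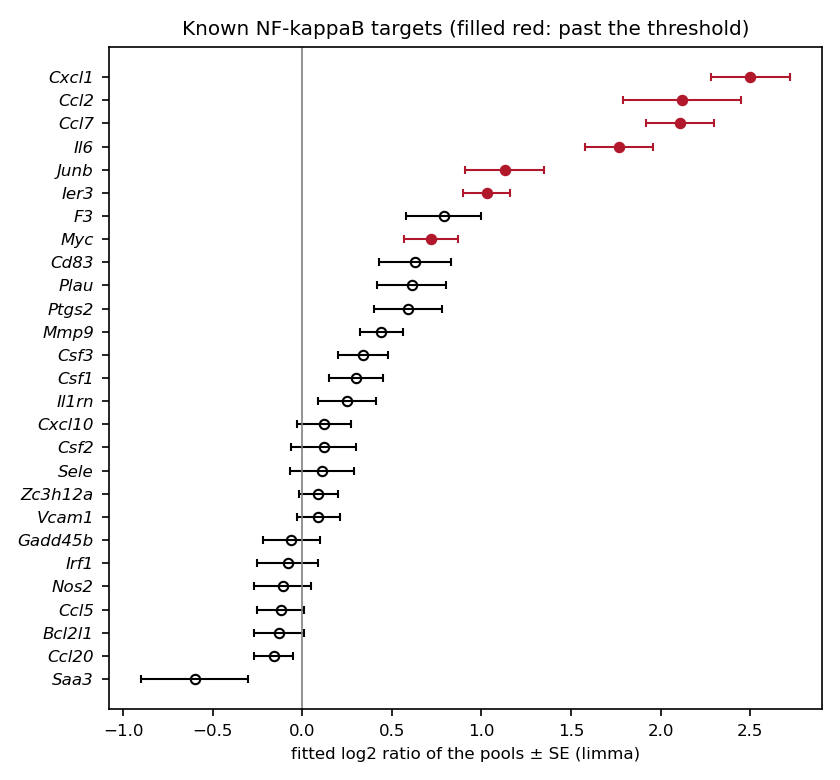
Fitted log2 ratios with standard errors of the 27 tested NF-kappaB targets outside the family, filled where the gene passed the test. The 7 genes past the test, from Myc at 0.72 to Cxcl1 at 2.5, are all higher.

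Lists of markers of cell types that a fat pad holds were read beside these genes. Of 6 macrophage markers tested, 1 was lower and 0 were higher (Mpeg1, -0.69 ± 0.15, limma adjusted p = 0.0415), with a median of -0.04. Of the T cell, B cell, neutrophil and endothelial markers, 0 of 6, 0 of 4, 0 of 4 and 0 of 5 passed, with medians of -0.11, -0.11, 0.26 and -0.26. The 6 adipocyte markers had a median of 0.56 and 0 passed. Their median was 1.81 on array 3 and between 0.08 and 0.41 on the other arrays. At an unadjusted limma p under 0.05 were 4 of 6 adipocyte, 1 of 6 macrophage and 0 of 6 T cell markers. For B cell, neutrophil and endothelial markers it was 2 of 4, 2 of 4 and 2 of 5. Over all genes tested, 3.12% passed and 18.6% had an unadjusted p under 0.05. Of a list of 7 seminal vesicle and epididymis transcripts, 5 were tested and all 5 were lower, against 1.22% of all genes tested. Their ratios ran from -5.47 ± 0.48 for Svs5 to -1.16 ± 0.24 for Svs4. Lcn5 (-0.19, 1.29, 0.14 and 0.27 on arrays 3 to 6) had too few values to be tested. So had Adam7 (-0.19, 0.41, 0.31 and 0.73 on arrays 1, 4, 5 and 6). The part of these transcripts and of the marker shifts in the ratios of the TNF and NF-kappaB genes was not tested.

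The names of the 5 genes past the test each rest on the number of 1 probe. The 6 probes nearest in number to Tnfrsf12a had means between -0.31 and 0.17, and Tnfrsf12a lay above all of them on 6 of 6 arrays. Nfkbie did so on 6 of 6 arrays and Tnfsf14 on 5 of 6. Rela and Tnfrsf25 exceeded all of their neighbours on 3 of 6 and 3 of 5 arrays, so a slip on single arrays would be seen less easily for them. A shift shared by all arrays would move a high value as a whole and leave it above its neighbours. These comparisons therefore cannot show a shared shift for any of the 5 genes. The placement also favours agreement between arrays. Probes of the same gene, taken in 1302 pairs, correlated at 0.192 over pairs as numbered, against at most 0.153 at 40 shifted numberings, so a name can be wrong.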

How the data were processed

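Per the labels' protocols, cDNA of the pools was labelled for Cy3 or Cy5 with tyramide signal amplification, and the slides were scanned and read with QuantArray 3.0. The authors applied a uniform scale factor and LOWESS and deposited log ratios, taken here as log2; the sources used here state neither the base nor the numerator nor why spots were dropped. Were they natural logs, every ratio would be 1.44 times larger, with the same calls.

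Empty cells stood at the column ends alone (29, 724, 38, 169, 8 and 1 on arrays 1 to 6). A hidden Markov model (Python 3.11.15) assigned each column's values to the 19200 probe numbers, allowing a column only to lose spots. It was run from 11 starting frames and kept values with a posterior of at least 0.95. The placement was chosen after the data were seen. It rewards agreement between arrays; with the values at the probes described here given no weight, at least 99.35% of placed values kept their row.

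Names came from the platform annotation (14711 probes with 1 symbol, 6 with several, which were not used, and 4483 unnamed here); Entrez identifiers matched for 14416. A gene's value is the mean of its probes. Genes with at least 2 values in each orientation were fitted with limma 3.58.1 (R 4.3.3, lmFit and eBayes) with dye orientation as a term and Benjamini-Hochberg adjustment over all genes tested. Script and placement were tested on simulated data. The simulated columns followed the model that the placement assumes, so they cannot show whether it fails on the real columns. Labels give 1 lot per slide, so lots could not be tested as batches.

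The genes and lists were chosen with earlier results of these data known. Named are all genes past the test or with an adjusted p under 0.1, a ratio of at least 1 in size, and the core pathway genes whatever their values; other genes were named after their values were seen. Alternatives are given in the closing section.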

Additional observations from a re-analysis of the deposited data

Results flagged for a closer look

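Traf3ip1, which encodes a Traf3-binding protein of cilia, had opposite signs in the dye orientations. Its log2 ratios were 0.13, 0.28 and 0.21 on arrays 1 to 3, with the CL-316,243 pool in channel 1, and -0.42, -0.44 and -0.31 on arrays 4 to 6, with it in channel 2. The means differed by 0.59 on the log2 scale. The gene was picked out by the signs alone, which is no test, and the dye term of the limma fit did not pass (adjusted p = 0.396).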

How the results depend on the processing

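Nfkbie, Tnfrsf12a and Tnfsf14 passed the limma test in all 16 alternatives other than reading rows as deposited, with log2 ratios of 1.82 to 2.33, 1.73 to 3.09 and 1.80 to 2.10. Read as deposited, without placement, 0 of 13409 genes passed (489 at an unadjusted p under 0.05) and 0 of the 53 genes described (1 unadjusted). Over all genes, 42 of 12916 passed on arrays 1 to 3 alone and 198 of 13368 on arrays 4 to 6 alone. Leaving out single arrays gave between 124 of 11878 (without array 5) and 383 of 8326 (without array 3). Without array 1 it was 149 of 8274, and without array 4 it was 202 of 12842. Of the genes described, 3 of 53 (5.66%) passed on arrays 1 to 3 alone, against 0.325% of all genes. On arrays 4 to 6 alone it was 4 of 53 (7.55%), against 1.48%. Without single arrays it was 3 to 6. The 6 were of 53 (11.3%) without array 2, against 2.58% of all genes. Without array 6 it was 4 of 45 (8.89%), against 2.39%. Rela was at 0.40 to 0.71 (adjusted p 0.0299 to 0.258) and Tnfrsf25 at 0.44 to 0.82 (0.0154 to 0.450) over alternatives. Tnfrsf23 passed as lower at a posterior of 0.99, with quantile or scale normalization and with robust eBayes. The median over the genes kept within its spread between arrays, and the dye term passed in 0 genes. Signs turned for genes that did not pass the test. On arrays 1 to 3 alone they were Ikbkg at -0.31, Rel at -0.30, Tnfrsf1b at -0.07 and Traf6 at -0.01. On arrays 4 to 6 alone they were Ikbkb at 0.12, Nfkbia at 0.15, Tnfaip3 at 0.02, Traf2 at -0.01 and Traf5 at -0.10. Ikbkb was at 0.00 with no dye term and at 0.04 when these probes had no weight in the placement. In rows as deposited they were Ikbkb at 0.11, Ikbkg at -0.21, Nfkbib at 0.05, Relb at -0.22, Tnf at 0.12, Tnfaip3 at 0.04, Tnfrsf1a at -0.17, Traf1 at -0.80, Traf5 at -0.02 and Traf6 at -0.90. Without single arrays, ranges were -0.09 to 0.08 for Ikbkb, -0.17 to 0.04 for Nfkbia, -0.09 to 0.23 for Tnfrsf1b, -0.09 to 0.17 for Traf2 and -0.03 to 0.12 for Traf5. The cause of these turns was not tested. Signal over background is unknown without intensities.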
